A study of Mus musculus with 8 samples.

Results

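Genes of excitation-contraction coupling and calcium handling were examined in the tibialis anterior, a mainly fast muscle on the front of the shin, of mice with and without Carm1 in skeletal muscle. The set holds 34 genes of the triad, the voltage-gated calcium channel, the calcium store, the membrane of the sarcoplasmic reticulum and the ion channels of the surface membrane, matched by gene symbol among 24341 listed genes. All 34 were listed, and 33 had a usable value in all 8 libraries and passed the filter on low values. The exception was Atp2a1, the fast calcium pump, which was listed at 0 with a low-data status in control 1, knockout 1 and knockout 3. It was therefore left out of the test across genes.

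Both groups are described as male mice of 12 weeks on a chow diet, although 3 of the 8 libraries hold Xist (given below), and both carried floxed Carm1. The 4 knockouts (Carm1 skm-/-) also carried a Cre transgene named HSAcre, and the 4 controls (Carm1 skm+/+) carried none, so presence of Cre and loss of Carm1 cannot be told apart. Carm1 encodes a protein arginine methyltransferase. HSA is the usual short form for a human skeletal actin promoter, used to drive Cre in muscle fibres. The exons deleted are not given in the sources used here, and cells other than fibres should keep the gene. The libraries of a group are labelled as biological replicates, and the question is how the transcripts of the calcium machinery differ between the genotypes.

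In a muscle fibre, an action potential spreads along the surface membrane into the transverse tubules and moves the voltage sensor, the L-type calcium channel. At the triad, where a tubule faces the sarcoplasmic reticulum, the sensor opens the ryanodine receptor, and calcium leaves the store to start contraction. Calcium pumps of the SERCA family then return it to the store, where calsequestrin binds it. Fast and slow fibres use partly different genes for the pump, its small inhibitory peptides and calsequestrin.

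Values are FPKM (fragments per unit of transcript length and of sequencing depth) divided by a scaling factor for each library, called scaled FPKM. In whole muscle, fewer cells of a type and less RNA per cell cannot be told apart. Carm1 itself, which the Cre targets, stood at 27.1, 37.4, 27.3 and 30.1 scaled FPKM in controls 1 to 4 and at 18.0, 12.7, 17.2 and 13.8 in knockouts 1 to 4, without overlap (limma adjusted p = 0.0466). Without any 1 library the Carm1 log2 difference lay between -1.02 and -0.84 with adjusted p between 0.0638 and 0.154, and over 18 alternatives it passed in 6. The listed position of Carm1 overlaps Yipf2 and 1810026J23Rik, and without a stated use of strand its value is uncertain to that extent. No read counts are given; judged by the steps between the lowest values, the shallowest library had 81.0% of the depth of the deepest. In every library the muscle fibre markers Des, Mb, Ttn, Neb, Tnnc2, Mylpf, Actn2 and Cav3 summed to at least 44982 scaled FPKM, while the fibre markers Acta1 and Ckm were listed at 0 with a low-data status in some libraries and left out. The series describes the mice as male, yet 3 libraries (control 1 and knockouts 2 and 4) held Xist, the RNA of the inactive X chromosome, at 19.3 to 21.5 scaled FPKM, against at most 0.0733 in the other 5 libraries. The same libraries held Myh2, the myosin of type IIa fibres, at 782 to 1442 scaled FPKM, against 119 to 173 in the other 5. Key results are therefore repeated with Xist as a covariate, and in only those 5 libraries.

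Dhrs7c and Jph1 were the 2 members that passed the test, and both fell in the knockout. Members that did not pass may still differ by less than 4 libraries a group can show. Of 33 members tested with limma across all 11096 genes, 0 rose and 2 fell at an adjusted p under 0.05, against 0.198% and 0.162% of all genes tested (0.36% in both directions, 22 higher and 18 lower, or 36 higher and 13 lower without scaling). The members were chosen with earlier results of these data known, so more calls than among all genes are not read as particular to the set. At an unadjusted p under 0.05 there were 6 members, against 13.1% of all genes. The differences of most members were small. For 25 of the 33 the log2 difference was under 0.25 in size, and the median was -0.09, against -0.0021 over all genes tested. By sign alone 24 members were lower and 9 higher, and 50.5% of all genes were lower. Without scaling 17 were lower and 16 higher, where 33.1% of all genes were lower. The groups did not overlap for 4 members, Dhrs7c, Jph1 and Hrc on the lower side and Sln on the higher side, which was so for 3.64% of all genes on the lower side and 4.67% on the higher side (8.31% together).

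**Figure D1:**
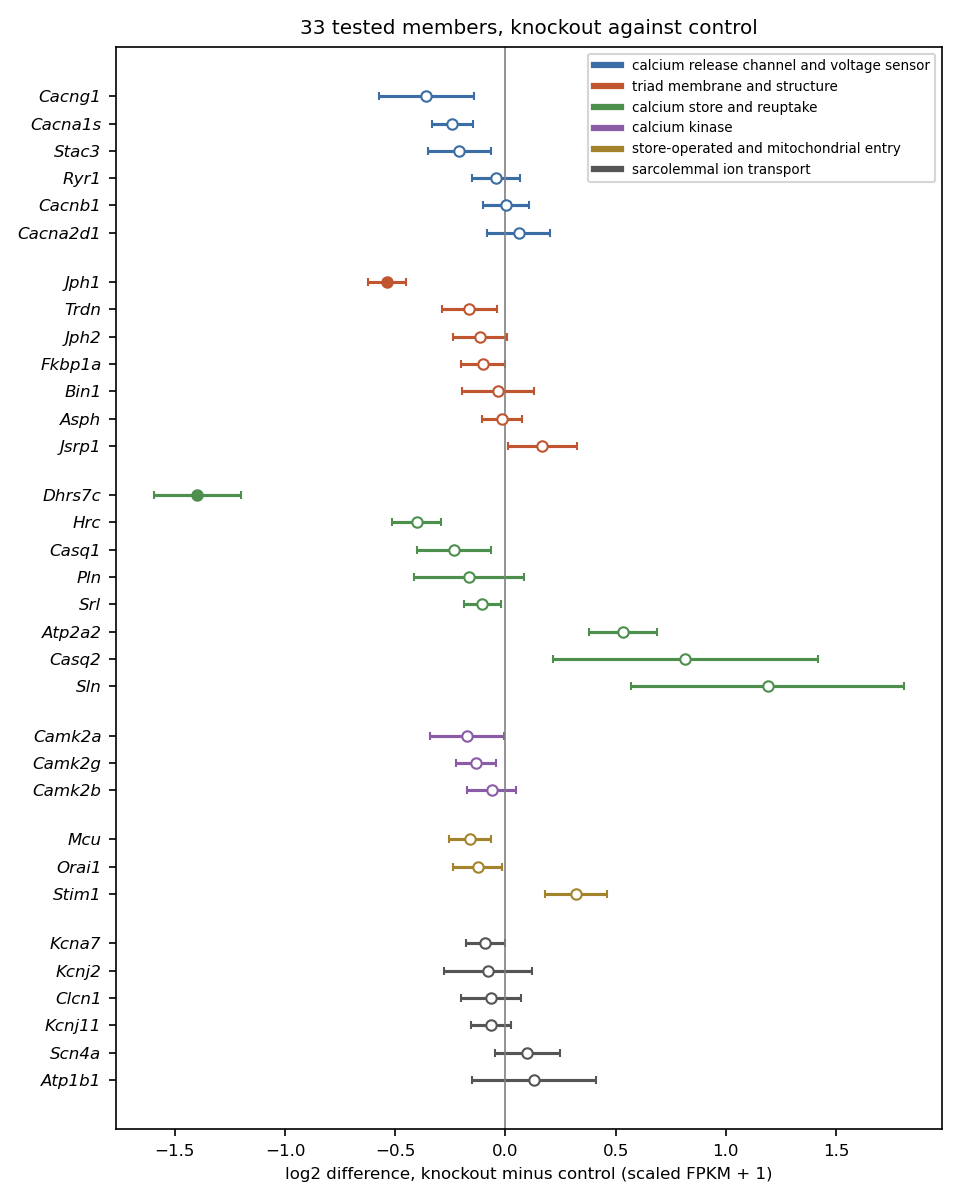
Log2 difference between knockout and control for the 33 tested members, grouped by role; points are fitted differences of log2(scaled FPKM + 1), bars are standard errors, and filled points mark an adjusted p under 0.05. Dhrs7c lies at -1.40 and Jph1 at -0.54, and 25 of the 33 points lie within 0.25 of 0.

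The release channel and the voltage sensor did not pass the test in any of their 6 genes. Ryr1, the calcium release channel of the sarcoplasmic reticulum, stood at 152 ± 14.9 scaled FPKM in the controls against 147 ± 17.2 in the knockouts (means ± SD of 4 libraries, as below), a log2 difference of -0.04 (SE 0.11). Cacna1s, the pore of the L-type channel, had the smallest p of the group. It was measured at 164, 145, 161 and 140 scaled FPKM in controls 1 to 4 and at 132, 120, 144 and 119 in knockouts 1 to 4. Knockout 3 lay within the range of the controls and the other 3 knockouts below it. The log2 difference of Cacna1s was -0.24 (SE 0.09, limma adjusted p = 0.318). With Xist as a covariate it was -0.23 (adjusted p = 0.244), and in the 5 libraries without Xist -0.10 (adjusted p = 0.729).

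None of the auxiliary subunits passed the test. Cacnb1, the β subunit that the channel needs to reach the triad, was at 101.3 ± 7.98 and 101.6 ± 12.0 scaled FPKM. Cacna2d1, the α2δ subunit, was at 46.0 ± 7.75 and 48.0 ± 7.05. Cacng1, the γ subunit, varied most within the groups, from 196 to 300 scaled FPKM in controls and from 151 to 296 in knockouts, and the log2 difference was -0.36 (SE 0.22, adjusted p = 0.515 by limma). Stac3, an adaptor that links the voltage sensor to the release channel, stood at 179 ± 22.6 and 156 ± 26.6.

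At the triad, Jph1 fell while its relative Jph2 did not pass. Both encode junctophilins, which span the gap between the transverse tubule and the sarcoplasmic reticulum. Jph1 lies on chromosome 1 from 16994940 to 17097889 (mm10), and no other listed gene overlaps it. It was measured at 67.0, 77.0, 64.3 and 75.2 scaled FPKM in controls 1 to 4 and at 44.8, 48.0, 51.5 and 49.2 in knockouts 1 to 4. Every knockout lay below every control, and the 4 knockouts spanned a narrower range than the controls. The knockout mean was 68.3% of the control mean, and the log2 difference was -0.54 (SE 0.09, adjusted p = 0.0487 by limma). The call was close to the threshold. With Xist as a covariate the difference was -0.53 (adjusted p = 0.0304), in the 5 libraries without Xist it was -0.57 (adjusted p = 0.195), and without any 1 library it lay between -0.58 and -0.50 with adjusted p between 0.0651 and 0.174. The direction was the same in all 18 alternatives, and the threshold was passed in 1.

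Jph2 was measured at 144, 166, 133 and 149 scaled FPKM in controls 1 to 4 and at 135, 111, 159 and 146 in knockouts 1 to 4, and the groups overlapped. Its log2 difference was -0.11 (SE 0.12). Jph1 made up 31.7%, 31.7%, 32.5% and 33.5% of the summed junctophilin FPKM in controls 1 to 4. In knockouts 1 to 4 the share was 24.9%, 30.2%, 24.5% and 25.2%. All knockout shares lay below all control shares, with knockout 2 closest to the controls. The knockout share differed by -6.15 percentage points (2-sided exact permutation test, p = 0.0286, and no smaller value is possible with 70 assignments). Adjusted over the 4 shares examined it was 0.114. A share within a library does not depend on the scaling between libraries.

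None of the other 5 triad genes passed the test. Trdn (triadin) and Jsrp1, both proteins of the junctional membrane, stood at 449 ± 72.0 and 417 ± 71.4 scaled FPKM in controls and at 398 ± 32.6 and 468 ± 73.2 in knockouts. Asph, whose locus also encodes junctin and junctate, was at 175 ± 11.7 and 173 ± 15.3. Fkbp1a, the FKBP12 protein that stabilises the closed release channel, was at 91.4 ± 8.53 and 85.0 ± 7.71. Bin1, which bends membrane into transverse tubules, was at 292 ± 34.2 and 289 ± 61.6. The listed positions of Trdn, Asph and Bin1, like those of Ryr1, Camk2a, Atp1b1 and Atp2a1 in other groups, overlap another listed gene, and without a stated use of strand their values are uncertain to that extent.

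Dhrs7c showed the lowest log2 difference of the 33 members. It encodes a short-chain dehydrogenase, also called SRP-35, that sits in the membrane of the sarcoplasmic reticulum. Dhrs7c lies on chromosome 11 from 67798271 to 67816002 (mm10) with no other listed gene overlapping it. Controls 1 to 4 held 345, 368, 370 and 304 scaled FPKM, and knockouts 1 to 4 held 84.2, 134, 167 and 154. The highest knockout, knockout 3, was well below the lowest control, control 4, and knockout 1 was the lowest of all. The knockout mean was 38.9% of the control mean, and the log2 difference was -1.40 (SE 0.20, adjusted p = 0.0434 by limma). With Xist as a covariate it was -1.44 (adjusted p = 0.0223) and in the 5 libraries without Xist -1.53 (adjusted p = 0.163). Without any 1 library the difference lay between -1.52 and -1.19. The adjusted p was 0.0276 without knockout 1 and 0.0453 without knockout 3, and between 0.0691 and 0.142 without any of the other 6. Over 18 alternatives Dhrs7c kept its direction and passed the threshold in 8.

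**Figure D2:**
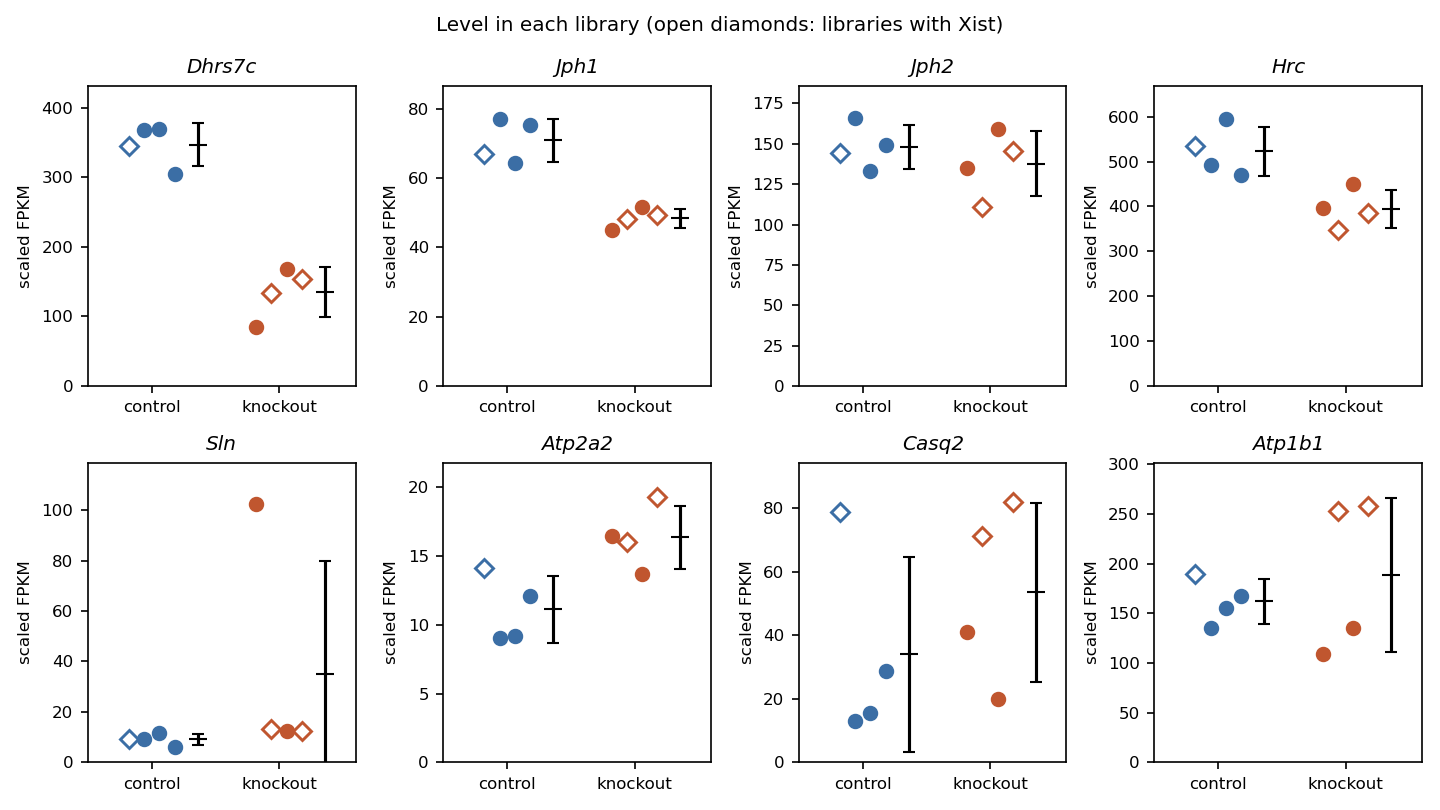
Scaled FPKM of 8 members in each library, controls in blue and knockouts in orange; open diamonds are the 3 libraries with Xist, and black bars are the mean ± SD of the 4 libraries of a genotype, with the lower end of the Sln bar below the axis. Dhrs7c, Jph1 and Hrc show no overlap between the genotypes, Sln has knockout 1 at 102 far above the rest, and in the panels of Casq2 and Atp1b1 the diamonds lie highest.

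The proteins that hold calcium in the store did not pass as single genes. Hrc, the histidine-rich calcium-binding protein of the store, was measured at 533, 492, 595 and 469 scaled FPKM in controls 1 to 4 and at 397, 348, 450 and 385 in knockouts 1 to 4. All knockouts lay below all controls, knockout 3 by the smallest margin. The log2 difference was -0.40 (SE 0.11, adjusted p = 0.174 by limma). With Xist as a covariate it was -0.38 (adjusted p = 0.127), and in the 5 libraries without Xist -0.29 (adjusted p = 0.486). Srl (sarcalumenin), another calcium-binding protein of the reticulum, stood at 349 ± 23.5 and 324 ± 16.9.

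Calsequestrin is the main calcium buffer of the store, with Casq1 as the form of fast fibres and Casq2 as the form of slow fibres and heart. Casq1 had the highest level of the 33 members with a value in every library. It was measured at 1551, 1823, 1840 and 1655 scaled FPKM in controls 1 to 4 and at 1814, 1116, 1739 and 1280 in knockouts 1 to 4. Knockouts 2 and 4 were low and the other knockouts lay within the control range. Casq2 was measured at 78.8, 13.0, 15.5 and 28.7 scaled FPKM in controls 1 to 4 and at 41.0, 71.1, 19.97 and 81.8 in knockouts 1 to 4. The high values belonged to control 1, knockout 2 and knockout 4, the libraries with Xist, and the genotypes overlapped. Their log2 differences were -0.23 (SE 0.17) for Casq1 and 0.82 (SE 0.60) for Casq2. In the 5 libraries without Xist the Casq2 difference was 0.64 (adjusted p = 0.543), and with knockouts 2 and 4 left out together it was 0.13. Casq2 made up 2.02% ± 1.93 of calsequestrin FPKM in controls and 3.83% ± 2.53 in knockouts (2-sided exact permutation test, p = 0.2, and 0.2 adjusted over the 4 shares).

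The stretches upstream of both calsequestrin genes are shown because the 3 libraries with Xist were the 3 highest for Casq2 and the 3 lowest for Casq1. Each is the 250 bases before the start of transcription, from RefSeq on GRCm38.p6, written 5′ to 3′ along the gene. Capitals mark E-boxes (CANNTG, which reads the same on both strands), the motif bound by the myogenic basic helix-loop-helix factors, and matches to the consensus of MEF2, a transcription factor of muscle.
Casq1 (chr1:172219896-172220145, minus strand): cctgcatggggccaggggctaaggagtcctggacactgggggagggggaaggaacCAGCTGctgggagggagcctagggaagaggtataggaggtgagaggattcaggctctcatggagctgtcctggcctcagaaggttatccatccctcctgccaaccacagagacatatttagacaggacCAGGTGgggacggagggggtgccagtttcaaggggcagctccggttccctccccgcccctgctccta
Casq2 (chr3:102086165-102086414, plus strand): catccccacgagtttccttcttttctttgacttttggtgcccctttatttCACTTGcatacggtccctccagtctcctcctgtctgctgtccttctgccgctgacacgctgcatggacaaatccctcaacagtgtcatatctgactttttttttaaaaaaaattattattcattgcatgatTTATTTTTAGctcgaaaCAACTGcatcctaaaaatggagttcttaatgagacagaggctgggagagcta
Each window held 2 E-boxes, and the Casq2 window also held 1 MEF2 match, which does not overlap an E-box. E-boxes are common, with at least 1 in 66.2% of 32817 windows of this length, whereas a MEF2 match was found in 2.92%. Of the 34 members 20 had an entry in the table, with 22 windows, of which 16 held an E-box and 2, those of Casq2 and Clcn1, a MEF2 match. A match of letters is not a measured binding site. Dhrs7c, Jph1 and Sln had no entry.

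The slow calcium pump and the small inhibitors Sln and Pln had low levels in this muscle, apart from Sln in knockout 1. The fast pump Atp2a1 was measured at 7303, 7351 and 6285 scaled FPKM in controls 2, 3 and 4 and at 6246 and 6528 in knockouts 2 and 4. The knockout values were 1 just below and 1 just above the lowest control value (2-sided exact permutation test, p = 0.4, where 0.2 is the smallest that 3 against 2 libraries allow). Atp2a2, the slow pump, was at 14.1, 9.02, 9.22 and 12.1 scaled FPKM in controls 1 to 4 and at 16.5, 16.0, 13.7 and 19.3 in knockouts 1 to 4. Only control 1 and knockout 3 overlapped. The log2 difference of Atp2a2 was 0.53 (SE 0.15, limma adjusted p = 0.189), and over 18 alternatives it lay between 0.43 and 0.65 with adjusted p between 0.109 and 0.405. Atp2a2 made up 0.147% ± 0.0394 of pump FPKM in 3 controls and 0.275% ± 0.0273 in 2 knockouts, without overlap, and the exact permutation p was 0.2, the smallest this design allows. Both knockout shares come from libraries with Xist and all 3 control shares from libraries without, so genotype and Xist cannot be told apart there.

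Sln, sarcolipin, is a small membrane peptide that inhibits the pump. It was measured at 9.24, 9.32, 11.6 and 6.30 scaled FPKM in controls 1 to 4 and at 102, 13.2, 12.4 and 12.3 in knockouts 1 to 4. Knockout 1 stood far above every other library, and the other 3 knockouts lay just above the highest control. The log2 difference of Sln was 1.19 (SE 0.62, adjusted p = 0.468 by limma), and without knockout 1 it was 0.46. Of the slow-fibre markers, the troponins Tnnt1 (56.4 scaled FPKM against at most 23.3 elsewhere), Tnni1 (25.8 against at most 15.3) and Tnnc1 (37.1 against at most 28.9) were highest in knockout 1. Others of the same list, Myl3 at 9.54 and Myoz2 at 43.5, were lowest in that library. The sum over all 11 slow-fibre markers was 398 there, inside the range of 308 to 2199 over the 8 libraries. Of the cardiac markers, Myl7 was at 0 in every library, and Nppa, Nppb, Tnni3 and Ryr2 were under 1 scaled FPKM in every library. The other 3 were detected, Actc1 at 76.7 to 368, Myl4 at 11.2 to 22.7 with the highest value in knockout 1, and Myh6 at 0.689 to 2.13. The part of fibre types in the Sln value was not tested.

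Pln, phospholamban, inhibits the slow pump and was near the lower limit of the filter. It was at 4.45, 2.91, 2.05 and 4.09 scaled FPKM in controls 1 to 4 and at 1.80, 3.13, 2.21 and 4.62 in knockouts 1 to 4, and the groups overlapped. Its listed position overlaps the genes Cep85l and Gm19395, so its value is uncertain. Pln made up 27.7% ± 10.6 of the summed Sln and Pln in controls and 15.8% ± 10.7 in knockouts (exact permutation p = 0.2, n = 4 each). That share was 1.72% in knockout 1, the lowest of all libraries.

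Markers of fibre types are given beside these values. Of 10 slow-fibre markers tested, 9 were higher in the knockout, with a median log2 difference of 0.47 and sums of 308 to 1187 scaled FPKM in controls and 318 to 2199 in knockouts. Of 8 fast-fibre markers tested, 8 were lower, with a median of -0.38 and sums of 101340 to 149230 in controls and 64598 to 110840 in knockouts. Control 1 and knockouts 2 and 4 hold Xist. Without them the slow-fibre sums were 362, 715 and 308 in controls 2 to 4 and 398 and 318 in knockouts 1 and 3. The fast-fibre sums of the same libraries were 120220, 149230 and 106120 against 105270 and 110840. By limma 0 of 76 markers in all 11 lists passed the test, with 12 at an unadjusted p under 0.05, of which 2 were slow-fibre and 1 a fast-fibre marker. Over all genes tested the shares were 0.36% and 13.1%. Of the 12, the cardiac and fibro-adipogenic lists held 3 each, the smooth muscle and mural list 2 and the satellite cell list 1. The markers of smooth muscle and mural cells, where Pln and Atp2a2 are also expressed and which include the fibre gene Des, were lower in 11 of 11, with a median of -0.27 and sums of 1407 to 1643 and 1252 to 1570. The markers of endothelium were lower in 9 of 10 (median -0.12), of fibro-adipogenic cells in 9 of 10 (-0.16), of adipocytes in 3 of 3 (-0.57) and of Schwann cells in 7 of 7 (-0.09). The adipocyte markers tested were Cfd, Fabp4 and Retn. Adipoq, Plin1, Lep and Cidec stayed below the filter and were highest in knockout 1, at 3.29, 0.868, 0.768 and 1.39 scaled FPKM. Fabp4 was lowest in that library, at 639. Macrophage markers were higher in 6 of 7 (0.10) and cardiac markers in 2 of 3 (0.49), with Actc1 lower at -1.02. Satellite cell markers were higher in 1 of 2 and general fibre markers in 3 of 8 (median -0.08). The general fibre markers summed to 61043 to 86782 scaled FPKM in controls and 44982 to 60746 in knockouts, without overlap. Much of that sum comes from Mylpf and Tnnc2, which are also on the fast-fibre list. The part of these cells in the results was not tested.

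**Figure D3:**
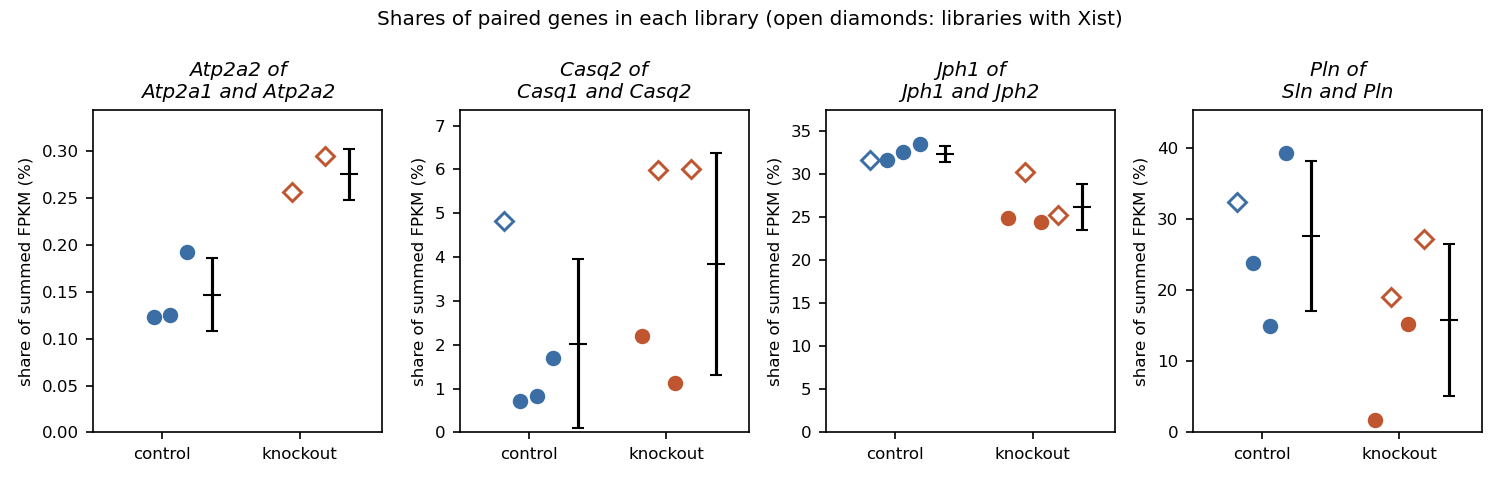
Share of the first gene in the summed FPKM of each pair, in percent, for every library with a value for both genes; open diamonds are libraries with Xist, and black bars are the mean ± SD. The Jph1 share lies between 31.7% and 33.5% in controls and between 24.5% and 30.2% in knockouts, and the pump share rests on 5 libraries.

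The 3 subunits of the calcium- and calmodulin-dependent kinase II, which reads the calcium signal, did not pass the test. Camk2a stood at 92.5 ± 17.9 scaled FPKM in controls and 81.3 ± 12.4 in knockouts, and Camk2b at 40.3 ± 1.16 and 39.0 ± 6.20. Camk2g had the smallest p of the 3, at 60.4 ± 6.21 and 54.8 ± 2.79, and the log2 difference was -0.13 (SE 0.09, adjusted p = 0.569 by limma). In Camk2b the knockouts spread more than the controls, from 33.6 to 45.5 against 38.8 to 41.7.

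Among the genes of calcium entry, Stim1 had the smallest p and did not pass. Stim1 senses the calcium level of the store and opens Orai1, the channel of the surface membrane. It was measured at 70.6, 58.0, 45.9 and 57.2 scaled FPKM in controls 1 to 4 and at 61.7, 79.7, 67.8 and 79.8 in knockouts 1 to 4. Control 1 lay among the knockouts, and the other 3 controls lay below all of them. The log2 difference of Stim1 was 0.32 (SE 0.14, adjusted p = 0.377 by limma). With Xist as a covariate it was 0.24 (adjusted p = 0.224), and in the 5 libraries without Xist 0.27 (adjusted p = 0.473). Between libraries with and without Xist, Stim1 differed by 0.34 (adjusted p = 0.0546 by limma). Orai1 stood at 27.6 ± 3.58 and 25.1 ± 2.85, and Mcu, the pore of the mitochondrial calcium uniporter, at 14.0 ± 1.19 and 12.5 ± 1.29, and the log2 difference was -0.16 (SE 0.09).

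Genes of ion transport at the surface membrane had log2 differences from -0.09 to 0.13, and none of the 6 passed the test. Scn4a, the sodium channel that carries the action potential, stood at 49.5 ± 8.71 scaled FPKM in controls and 52.8 ± 7.19 in knockouts. Clcn1, the chloride channel that steadies the resting potential, was at 48.8 ± 7.92 and 46.3 ± 5.32. The potassium channel genes Kcna7, Kcnj11 and Kcnj2 stood at 73.6 ± 5.70, 42.0 ± 2.73 and 12.0 ± 1.28 in controls and at 69.0 ± 4.89, 40.1 ± 4.09 and 11.7 ± 3.79 in knockouts. Atp1b1, the β subunit of the sodium pump, was measured at 190, 135, 155 and 168 scaled FPKM in controls 1 to 4 and at 109, 253, 135 and 258 in knockouts 1 to 4. Knockouts 2 and 4, which hold Xist, were the highest of all libraries and knockout 1 the lowest.

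The members were also compared between libraries with and without Xist. In the fit with genotype and Xist, chosen after the data were seen, 6 of 33 members differed between the 3 libraries with Xist and the 5 without at an adjusted p under 0.05, 3 higher and 3 lower. Over all genes tested 12.4% differed, 7.42% higher and 5.03% lower. At an unadjusted p under 0.05 it was 15 members and 31.6% of genes. The counts of members lie somewhat above the shares of all genes and are not read as particular to the members. Counts of members and shares of all genes both rest on single libraries. Without knockout 2 it was 0 members (limma) and 1.86% of genes, and without control 4 it was 10 members and 18.7%. It was 1 member without control 1 (0.755% of genes), control 2 (6.2%) or knockout 1 (4.57%), 2 without knockout 3 (5.4%) or knockout 4 (4.65%), and 7 without control 3 (10.6%). The calls also moved with the processing. With trends on length, GC and level removed, Cacng1, Bin1 and Cacna2d1 did not pass and Stim1 did (4 members, 10.6% of genes). Without scaling Bin1 and Camk2a did not pass and Casq1 did (5 members, 9.74%), and with quantile normalization Camk2a did not and Casq1 did (6 members, 13.5%).

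Casq2, Atp1b1 and Cacna2d1 were higher in the libraries with Xist. Casq2 lay between 71.1 and 81.8 scaled FPKM with Xist and between 13.0 and 41.0 without, a log2 difference of 1.68 (SE 0.32, adjusted p = 0.0192 by limma). Atp1b1 lay between 190 and 258 with Xist and between 109 and 168 without, a difference of 0.75 (SE 0.17). Cacna2d1 lay between 52.5 and 57.0 and between 38.7 and 46.3, a difference of 0.37 (SE 0.09). In each of these genes the ranges did not overlap.

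Cacng1, Bin1 and Camk2a were lower in the libraries with Xist. Cacng1 lay between 151 and 196 scaled FPKM with Xist and between 214 and 300 without, a difference of -0.57 (SE 0.12). Bin1 lay between 216 and 263 and between 294 and 353, and Camk2a between 64.5 and 79.4 and between 89.7 and 107, with a difference of -0.43 for both. The slow-fibre markers summed to 1187 to 2199 scaled FPKM in the libraries with Xist and to 308 to 715 without, and the fast-fibre markers to 64598 to 101340 and to 105270 to 149230. The slow-fibre markers were not uniform. In knockout 4, Csrp3 held 1260, Ankrd2 373 and Myoz2 304 of the sum. The difference for Xist was 2.59 for Myl2 and 2.08 for Myoz2, but 0.55 for Tnni1 and 0.02 for Tnnt1. Tnnt1, Tnni1 and Tnnc1 were highest in knockout 1, which lacks Xist. Casq1 stood at -0.41 (adjusted p = 0.051) and Pln at 0.59 (adjusted p = 0.0693). The libraries also differed in technical trends. Across genes, the deviation from the gene mean correlated with GC at -0.27 to -0.14 in libraries with Xist and -0.09 to 0.20 without. With transcript length the correlations were 0.11 to 0.21 and -0.28 to 0.08. The calls with such trends removed are given above. The part of fibre type, and of whatever else separates these 3 libraries from the other 5, was not tested.

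**Figure D4:**
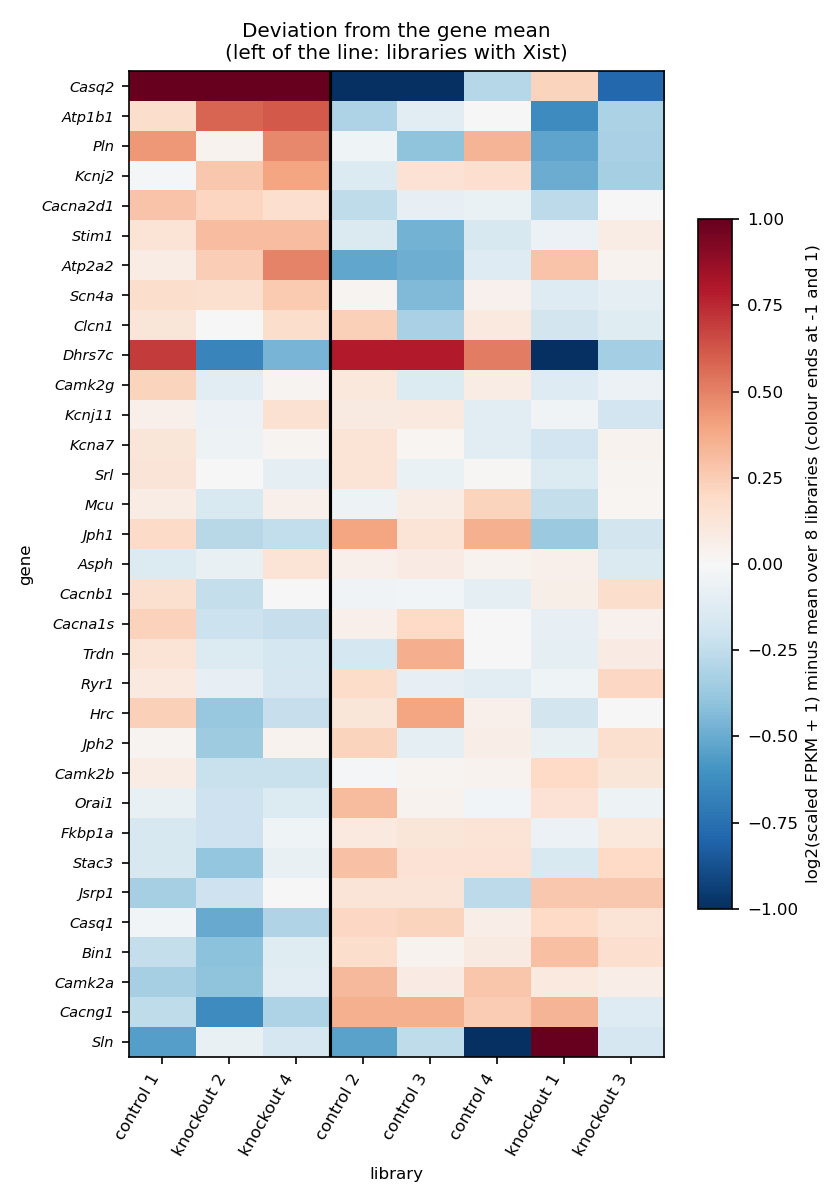
Each row is a member and each column a library; colour gives log2(scaled FPKM + 1) minus the gene's mean over the 8 libraries, with colour ending at -1 and 1. Rows are ordered by the difference between libraries with Xist (left of the line) and without, so Casq2 and Atp1b1 are at the top and Cacng1 and Sln at the bottom, while Dhrs7c and Jph1 divide by genotype on both sides of the line.

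Dhrs7c and Jph1 did not pass the test for Xist. Their differences between libraries with and without it were 0.15 (SE 0.21) and -0.03 (SE 0.09), beside genotype differences of -1.44 and -0.53 in the same fit. They were again the 2 members that passed for the genotype, both lower, where 2.01% of all genes passed, 1.09% higher and 0.919% lower (7 members and 18.6% of genes at an unadjusted p under 0.05). In the 5 libraries without Xist limma called 0 members (5 at an unadjusted p under 0.05, against 12.5% of genes) and 0.00936% of all genes, all lower. Without knockouts 2 and 4 it called 0 members (5 at an unadjusted p under 0.05, against 12.8%) and 0.111% of genes, 0.0462% higher and 0.0646% lower. The genotype difference itself was tested for a dependence on Xist with an interaction term. By limma it passed for 0 of 33 members (4 with an unadjusted p under 0.05) and for 0.018% of all genes, 0.00901% in each direction (2.66% at an unadjusted p under 0.05). Only 1 of the 3 libraries with Xist is a control.

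**Figure D5:**
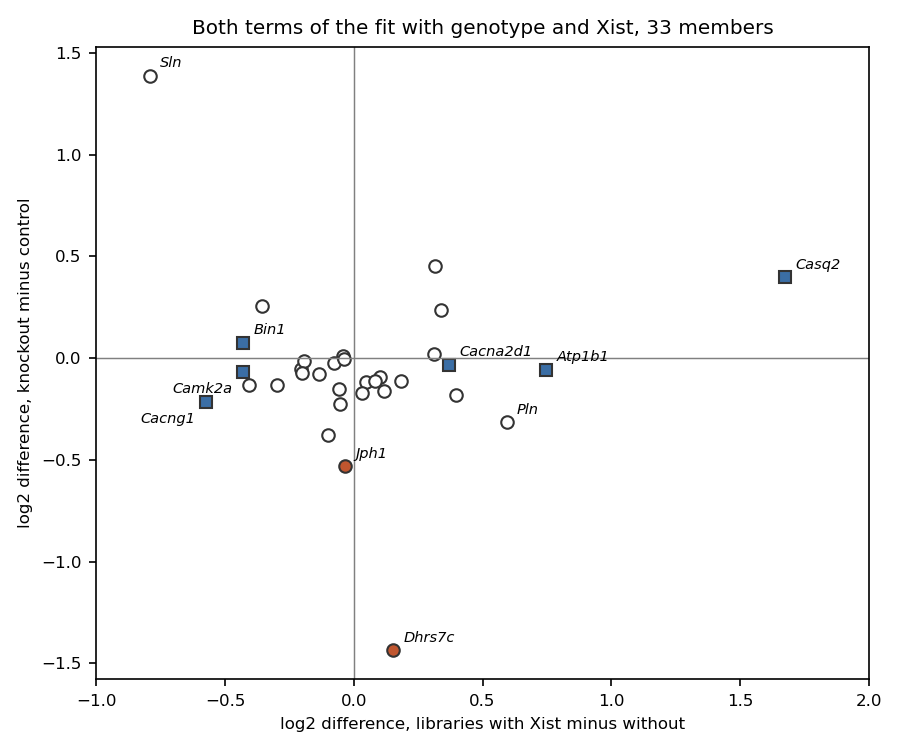
For the 33 members, the log2 difference between libraries with and without Xist (horizontal) and between knockout and control (vertical), both from the fit with both terms; squares pass for Xist and orange points pass for genotype at an adjusted p under 0.05. Dhrs7c and Jph1 lie low and near 0 on the horizontal axis, and Casq2 lies at 1.68 on it.

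Other genes of the same machinery, in 5 lists that do not contain the members, gave no call in the fit on genotype alone. Of 134 listed genes 98 passed the filter, and by limma 0 passed the test in either direction, with 21 at an unadjusted p under 0.05, against 13.1% of all genes tested. By sign 39 were higher and 59 lower, with a median log2 difference of -0.04, and the groups did not overlap for 4 on the higher and 7 on the lower side, against 4.67% and 3.64% of all genes. In the list of other channel and triad genes the smallest p was that of Cacng6, a further γ subunit, at 86.9 ± 10.6 scaled FPKM in controls and 65.4 ± 4.21 in knockouts, without overlap. In the list of other store and pump genes it was Mrln, myoregulin, which like sarcolipin inhibits the fast pump. Mrln was at 195, 328, 347 and 348 scaled FPKM in controls 1 to 4 and at 147, 102, 250 and 175 in knockouts 1 to 4, with a log2 difference of -0.89 (adjusted p = 0.231 by limma). Control 1 lay among the knockouts.

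In the list of kinases and the calcineurin pathway the smallest p belonged to Nfatc2, a transcription factor that calcineurin activates, at 3.34 ± 0.858 scaled FPKM in controls and 1.59 ± 0.260 in knockouts (adjusted p = 0.0826 by limma). The genotypes did not overlap for Nfatc2. Among the mitochondrial calcium genes it was Vdac3, a channel of the outer membrane, at 232 ± 8.98 and 206 ± 15.6 (adjusted p = 0.406). With Xist as a covariate, where 2.01% of all genes passed, ion genes of the surface membrane were called. Ano5 (log2 difference -0.70, limma adjusted p = 0.0111), Kcnc1 (-0.32, 0.0359) and Scn4b (-0.88, 0.0459) were lower, and Kcnma1 (0.55, 0.0469) higher. In the 5 libraries without Xist none of them passed (adjusted p from 0.163 to 0.296 by limma).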

How the data were processed

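Total RNA of flash-frozen muscle was made into TruSeq libraries, per the labels' protocols. STAR, Cufflinks and mm10 are named, without versions, in the submitters' processing notes, and for the gene annotation nothing is given in those sources. The FPKM in each library's table are as deposited by the authors. Depth is unknown, so no count model was run. In 23 genes some library lacked the status OK, and these stayed out of the fits.

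Each library's FPKM were divided by its median-of-ratios factor (0.904 to 1.07) and tested as log2(scaled FPKM + 1), a scale on which changes of low genes look smaller. The filter kept 11096 genes that reached 1 scaled FPKM in 4 or more libraries. The test was limma 3.58.1 (R 4.3.3) with a mean trend, 2-sided, with Benjamini-Hochberg adjustment over all genes and a threshold of 0.05. The fit was checked on simulated data. Shares were tested by exact permutation. Members and lists were chosen with earlier results of these data known. Values by library are given for members past the threshold and in the shares, and means for the 2 smallest p-values per role. From each further list the gene with the smallest p is named, except for 1 list, where it is not reported here. Cacna1s, Hrc, Stim1, Atp1b1 and Mrln by library, and the fits of Xist and its interaction, were chosen after values were seen. Promoter windows are RefSeq's (GRCm38.p6). Python 3.11.15 served for tables (pandas 2.3.3, numpy 2.4.6), exact tests (scipy 1.17.1) and plots (matplotlib 3.10.9).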

Additional observations from a re-analysis of the deposited data

Results flagged for a closer look

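In groups of 4 libraries, a value was singled out where its gap to the nearest other value, divided by the range of the group, exceeded Dixon's critical value. Of 72 groups examined 3 did, and chance alone gives about 1 in 20. Sln in the knockouts had a ratio of 0.990, with knockout 1 at 102 scaled FPKM and the next at 13.2. The Jph1 share of junctophilin in the knockouts had a ratio of 0.862, with knockout 2 at 30.2% and the next at 25.2%. Fkbp1a in the controls had a ratio of 0.851, with control 1 at 78.7 scaled FPKM and the next at 94.2.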

How the results depend on the processing

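The count of 40 genes past the threshold was 8 without a filter, 15 with a mean of at least 5 FPKM, 223 with Xist as a covariate, 1 in the 5 libraries without Xist, 12 without knockouts 2 and 4 together, and 2 to 27 without any 1 library. With the replicate number as a block it was 0, with 0 of 33 members (5 at an unadjusted p under 0.05 by limma). The shares of Jph1, Casq2 and Pln had an adjusted p of 0.375 each in the paired exact test, where 4 pairs cannot go below 0.125. Same-numbered libraries deviated together in numbers 3 and 4 only (correlations of 0.349 and 0.194, against -0.432 and -0.194). Control 1 correlated best with knockout 2 (0.479), and both hold Xist. These correlations cannot decide whether libraries of the same number were paired, and the labels give only a replicate number. The count of 2 members was 1 with a pseudocount of 0.1, quantile normalization, no scaling, genes above a mean of 5 FPKM, or trends on length, GC and level removed (Dhrs7c in each). Of all genes 0.288%, 0.297%, 0.441%, 0.211% and 0.544% passed under these settings, in that order (32, 33, 49, 15 and 60 genes). It was 0 without a filter (0.0411% of genes), in the 5 libraries without Xist (0.00936%) and without knockouts 2 and 4 (0.111%), and 0 to 1 without any 1 library (0.0182% to 0.245%). The cause was not tested, and some of these settings also use fewer libraries or another number of genes. The count of 6 members for Xist was 0 to 10 without any 1 library. Of 593 member values under alternatives, 52 in 13 members changed sign, none of them Dhrs7c or Jph1. These were, without scaling, Ryr1 at 0.05, Asph 0.07, Bin1 0.06, Camk2b 0.03, Clcn1 0.02, Kcnj2 0.00 and Kcnj11 0.02; with quantile normalization, Ryr1 0.07, Asph 0.06, Bin1 0.06 and Srl 0.00; with trends removed, Asph 0.01 and Bin1 0.06; with Xist as a covariate, Cacna2d1 -0.03, Bin1 0.08 and Atp1b1 -0.06. In the 5 libraries without Xist they were Ryr1 0.09, Bin1 0.14, Casq1 0.00, Camk2b 0.15 and Atp1b1 -0.33, and without knockouts 2 and 4 Ryr1 0.06, Cacna2d1 -0.10, Bin1 0.22, Casq1 0.05, Camk2b 0.13, Scn4a -0.06 and Atp1b1 -0.40. Without any 1 library Ryr1 ranged from -0.12 to 0.01, Cacnb1 from -0.06 to 0.08, Cacna2d1 from -0.02 to 0.17, Asph from -0.06 to 0.03, Bin1 from -0.14 to 0.10, Camk2b from -0.14 to 0.00, Scn4a from -0.03 to 0.17, Clcn1 from -0.19 to 0.00, Kcnj2 from -0.23 to 0.07 and Atp1b1 from -0.05 to 0.36. Pln had no value with a mean of at least 5 FPKM, and the share of the slow pump none in the 5 libraries without Xist or under the block. No depth is given, so precision per gene rests on the spread between animals.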
